A study of Mus musculus with 8 samples.

Results

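Transcripts of the hemoglobin and red cell program, 9 of the 16650 gene rows measured, were followed in the livers of 8 mice, 4 labelled L2aKO and 4 labelled 2afl/fl. The members are the α-globin rows *Hba-a1* and *Hba-a2*, the β-globin rows *Hbb-bs*, *Hbb-bt*, *Hbb-b1* and *Hbb-b2*, the erythroid heme synthesis gene *Alas2*, and the red cell membrane genes *Epb42* and *Slc4a1*, each found by its gene symbol. The members were chosen by their normalized values in these same livers and the difference between genotypes that those values gave, so that difference is described below with no test.

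L2aKO mice carry floxed alleles of *Mfsd2a*, a lysophospholipid transporter, and an Alb-Cre transgene that deletes them in hepatocytes, whereas 2afl/fl mice carry the floxed alleles without Cre. Both genotypes began a high-fat NASH diet with fructose water at 8 weeks of age, ate it for 2 weeks and were 10 weeks old when the liver was taken. The mice were male unless otherwise stated, were killed at zeitgeber time 4, were bled from the heart and were perfused with PBS before the liver was frozen. Each library comes from 1 mouse, and no source used here pairs the mice across genotypes. Which cells of these livers the transcripts came from was not measured.

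Hemoglobin carries oxygen as a tetramer of α- and β-globin chains, each holding a heme. Erythroblasts make globin mRNA in great amounts under GATA and KLF transcription factors, lose their nucleus, and carry the remaining mRNA as reticulocytes into the blood, where mature red cells hold much less. In the fetus the liver is a site of red cell formation, and in the adult it mostly clears old red cells, hemoglobin and heme through Kupffer cells and hepatocytes.

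The globin genes come as near copies, and their rows overlap and can share reads. In mouse build mm10 the *Hba-a1* row spans chr11:32283672-32297304 and the *Hba-a2* row chr11:32283675-32297311, both on the plus strand, so each row covers both α-globin genes, which RefSeq places in 815 bases at the left end of the interval and 819 bases at its right end. The *Hbb-b1* row (chr7:103826532-103827930, minus strand) overlaps the *Hbb-bs* row (chr7:103826523-103827929), and the *Hbb-b2* and *Hbb-bt* rows have the same interval, chr7:103812524-103813924. *Hbb-bs* and *Hbb-bt* are the adult β-globin genes of the haplotype in the reference genome, and *Hbb-b1* and *Hbb-b2* are names used for the adult pair of another haplotype. The 6 globin rows thus lie on 4 gene loci. *Alas2* (chrX:150547417-150570623, plus strand), *Epb42* (chr2:121017891-121036878, minus strand) and *Slc4a1* (chr11:102348820-102365282, minus strand) overlap no other row on either strand.

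The coding sequences of the paired genes are shown around their single difference, because a read that does not cross it or leave the coding region fits both copies. In GENCODE M21 transcripts (GRCm38) the coding sequences of *Hba-a1* and *Hba-a2*, 426 bases without the stop codon, differ at 1 base, and those of *Hbb-bs* and *Hbb-bt*, 441 bases, also differ at 1 base. Counted from the A of the start codon, the differences are C381T from *Hba-a1* to *Hba-a2* and C417T from *Hbb-bs* to *Hbb-bt*, and neither changes the encoded amino acid. The capital marks the base that differs. The α windows run over coding bases 351 to 411 (chromosome 11, plus strand) and the β windows over coding bases 387 to 441 (chromosome 7, minus strand).
Hba-a1: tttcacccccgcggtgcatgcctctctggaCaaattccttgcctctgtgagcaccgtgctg
Hba-a2: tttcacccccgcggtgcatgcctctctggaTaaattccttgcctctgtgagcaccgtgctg
Hbb-bs: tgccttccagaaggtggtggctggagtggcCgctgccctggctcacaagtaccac
Hbb-bt: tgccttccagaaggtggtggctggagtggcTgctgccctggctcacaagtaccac
Over whole transcripts, which also hold the more divergent untranslated ends, the longest run shared without a mismatch was 415 bases for the α pair and 430 bases for the β pair.

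Sequence upstream of the genes is shown because the summed α rows and the summed β rows ranked these livers in the same order while *Alas2* did not. RefSeq promoters (GRCm38.p6) were matched by symbol for 6 of the 9 members. Capitals mark matches on either strand to CACCC (a KLF-type box, GGGTG on the other strand), to CCAAT, to the TATA-type motif TATAA, and to the GATA-type motif GATAA, which reads TTATC on the other strand. No match overlaps one of another motif in the windows shown. The α window is bases -120 to -4 from the start of *Hba-a2* (chr11:32296372-32296488, plus strand), the β window bases -120 to -1 from the start of *Hbb-bs* (chr7:103827929-103828048, minus strand), and the *Alas2* window bases -120 to -43 (chrX:150547297-150547374, plus strand).
Hba-a2: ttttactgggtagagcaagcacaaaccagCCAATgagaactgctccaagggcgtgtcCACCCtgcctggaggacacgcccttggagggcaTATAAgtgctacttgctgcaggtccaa
Hbb-bs: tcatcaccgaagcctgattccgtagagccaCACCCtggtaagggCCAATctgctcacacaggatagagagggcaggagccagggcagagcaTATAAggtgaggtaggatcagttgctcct
Alas2: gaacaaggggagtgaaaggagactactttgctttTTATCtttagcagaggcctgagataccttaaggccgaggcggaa
All 4 globin promoters held the CACCC motif, the CCAAT motif and the TATAA motif within 120 bases of the RefSeq start. Of 32851 mouse promoters, 31.7% held CACCC, 21.3% CCAAT and 11.8% TATAA in that window. The *Hba-a1* and *Hba-a2* promoters share a run of 297 of 300 bases, whereas the longest run shared by *Hbb-bs* and *Hbb-bt* is 14 bases. GATAA stood further up in each globin promoter, starting between bases -209 and -182, and 22.6% of promoters held it within 250 bases. In the last 120 bases before its start, *Alas2* held 1 TTATC and 3 copies of GGGTG, which lie nearer the start than the printed window, but neither CCAAT nor TATAA. *Epb42* held none of the 4 motifs there. Starts here are those of RefSeq, and in all of these genes but *Hbb-bs* the GENCODE transcript begins further upstream. That transcript covers the whole 120-base window of *Hba-a1* and *Epb42*. In *Hba-a2*, *Hbb-bt* and *Alas2* it covers the part nearest the start, where the GGGTG copies of *Alas2* lie. These are matches of letters and were not tied to binding in these livers.

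The deposited values are normalized read numbers, in which 1 read is worth 0.819 to 1.09 in the libraries labelled L2aKO and 0.959 to 1.14 in the 2afl/fl libraries. Estimated depth was 28.2 to 37.2 M reads for the livers labelled L2aKO and 27.5 to 30.2 M for 2afl/fl livers. *Mfsd2a* itself, the deleted gene, had values of 915, 721, 1422 and 1974 in the livers labelled L2aKO, against 467, 1569, 299.6 and 513 in 2afl/fl livers. It was thus not lower under the L2aKO label, and since the table has 1 value per gene it cannot show the floxed part alone. By immunoblot the study found no Mfsd2a protein in L2aKO liver, a measure of protein and not of RNA. The directions given here rest on the labels. In the limma fit to log2-transformed values (1 added to each), 0 of 16650 genes had an adjusted p under 0.05 (smallest 0.164) and 581 had an unadjusted p under 0.05.

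The α-globin rows were higher in every liver labelled L2aKO than in every 2afl/fl liver. *Hba-a1* had values of 594, 595, 464 and 443 in livers 1 to 4 labelled L2aKO, against 407, 302, 337 and 340 in 2afl/fl livers 1 to 4. *Hba-a2* had 378, 492, 368 and 427 in livers labelled L2aKO, against 334, 258, 285 and 322 in 2afl/fl livers. The lowest liver labelled L2aKO and the highest 2afl/fl liver were close in both rows, at 443 and 407 for *Hba-a1* and at 368 and 334 for *Hba-a2*. The log2 fold change was 0.59 (SE 0.12) for *Hba-a1* and 0.47 (SE 0.11) for *Hba-a2*. Summed over both rows, α-globin averaged 940 ± 114 in livers labelled L2aKO and 646 ± 76.0 in 2afl/fl livers (SD, n = 4 each), and the log2 fold change of the sum was 0.54 (SE 0.10).

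The major β-globin locus put the livers in the order of the α-globin sum. *Hbb-b1* had 652, 850, 495 and 567 in livers labelled L2aKO, against 476, 398, 424 and 439 in 2afl/fl livers. *Hbb-bs* had 352, 458, 267 and 306 in livers labelled L2aKO, against 257, 215, 229 and 237 in 2afl/fl livers. The groups did not overlap in either row, although the lowest *Hbb-b1* value among livers labelled L2aKO, 495, and the highest among 2afl/fl livers, 476, lay close together. The livers labelled L2aKO were also more spread out, with a coefficient of variation of 24.0% for *Hbb-b1*, against 7.54% in 2afl/fl livers. The log2 fold change was 0.53 (SE 0.15) for *Hbb-b1* and 0.53 (SE 0.14) for *Hbb-bs*. These are not separate observations, because *Hbb-b1* stood at 1.85 times *Hbb-bs* in all 8 livers.

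The minor β-globin locus had far lower values, and its groups overlapped. *Hbb-b2* and *Hbb-bt* were equal in every library, at 79.5, 63.1, 41.3 and 50.7 in livers labelled L2aKO, against 49.4, 18.9, 47.2 and 40.1 in 2afl/fl livers. Livers 3 and 4 labelled L2aKO lay among or just above the 2afl/fl livers, and 2afl/fl liver 2 had the lowest value of all. The log2 fold change, 0.63 (SE 0.30), was as large as that of the other globin rows but its SE was wider. This locus made up 13.7, 8.80, 9.79 and 10.4% of the summed β-globin value in livers labelled L2aKO, against 11.9, 5.83, 12.6 and 10.6% in 2afl/fl livers, and so overlapped between genotypes. In 2afl/fl liver 2 each row of the locus stood for an estimated 17.8 reads. The sharing out of reads between near copies and the loci's own levels cannot be told apart in this share.

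**Figure D1:**
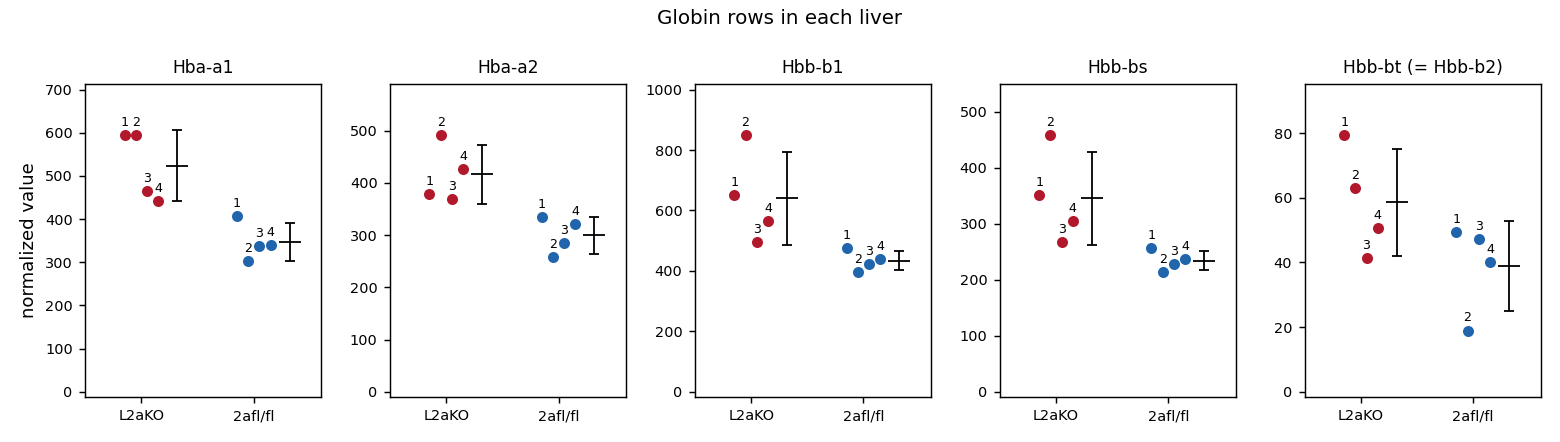
Normalized value of the globin rows (y axis, from about 0) in each liver, with livers labelled L2aKO on the left in red and 2afl/fl livers on the right in blue. Numbers are the replicate numbers of the labels, and the black bar is the mean ± SD of 4 livers. The groups do not overlap in *Hba-a1*, *Hba-a2*, *Hbb-b1* and *Hbb-bs* and overlap in *Hbb-bt*, whose values are those of *Hbb-b2*.

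Over all 6 globin rows the summed value was 2135, 2521, 1676 and 1843 in livers labelled L2aKO, against 1573, 1210, 1369 and 1418 in 2afl/fl livers. The means were 2044 ± 370 in livers labelled L2aKO and 1393 ± 150 in 2afl/fl livers (SD, n = 4 each), and the log2 fold change of the sum was 0.54 (SE 0.13). Taking 1 row of each overlapping pair, *Hba-a1*, *Hbb-b1* and *Hbb-bt*, gave 0.56 (SE 0.13). In whole liver, fewer or more cells of a type and less or more RNA in each cell cannot be told apart.

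The 8 livers fell in one order for both chains. Ranked from high to low, α-globin and β-globin each gave livers 2, 1, 4 and 3 labelled L2aKO and then 2afl/fl livers 1, 4, 3 and 2. The ratio of summed β to summed α was 1.20, 1.32, 1.01 and 1.12 in livers labelled L2aKO, against 1.12, 1.16, 1.20 and 1.14 in 2afl/fl livers, and so overlapped. Within genotypes, with each group mean removed, α- and β-globin deviated together (Pearson's r = 0.93 and Spearman's rho = 0.98 over 8 livers, given as a description). Without the livers farthest from the α median, liver 2 labelled L2aKO and 2afl/fl liver 1, r was 0.89 over 6 livers. Both chains of a liver come from 1 library and 1 scaling factor, which the points therefore share.

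**Figure D2:**
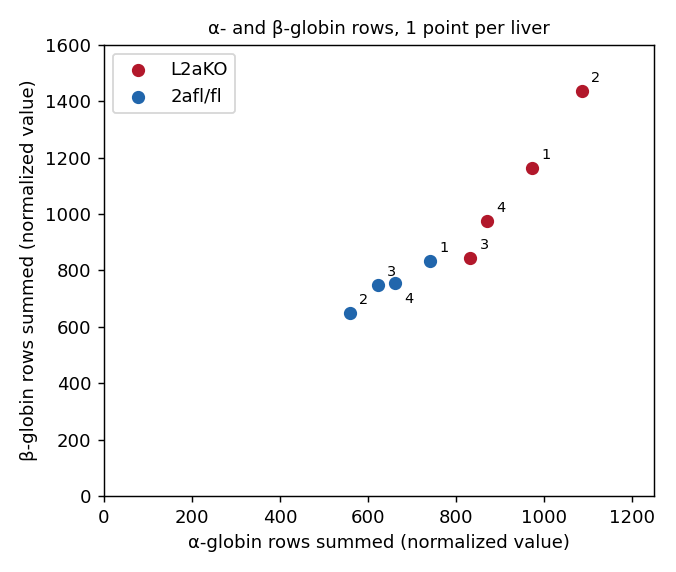
Summed value of the α-globin rows (x axis) against that of the β-globin rows (y axis), both as normalized values from 0, with 1 point per liver, red for livers labelled L2aKO and blue for 2afl/fl. The livers lie along a single line from 2afl/fl liver 2 (560 and 650) to liver 2 labelled L2aKO (1087 and 1435).

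The α-globin rows stood in no fixed ratio, unlike the β rows that overlap at a single locus. The ratio of *Hba-a1* to *Hba-a2* was 1.57, 1.21, 1.26 and 1.04 in livers labelled L2aKO, against 1.22, 1.17, 1.18 and 1.06 in 2afl/fl livers. Liver 1 labelled L2aKO stood above the other 7, which overlapped. Both rows span both genes, so the sharing out of reads and the genes' own levels cannot be told apart in this ratio.

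*Alas2*, which encodes the erythroid form of the first enzyme of heme synthesis, overlapped between the genotypes. Its values were 3536, 3939, 3217 and 3403 in livers labelled L2aKO, against 4370, 3962, 4056 and 2838 in 2afl/fl livers. The ranges overlapped throughout, with the lowest and the highest liver both 2afl/fl, and the log2 fold change was -0.10 (SE 0.13). Its value divided by the summed globin value was 1.66, 1.56, 1.92 and 1.85 in livers labelled L2aKO, against 2.78, 3.27, 2.96 and 2.00 in 2afl/fl livers. Within genotypes *Alas2* had a Pearson's r of 0.38 and a Spearman's rho of 0.57 with the summed globin rows over 8 livers.

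As normalized value per kilobase of spliced transcript, *Alas2* was above the major globin loci in 2afl/fl livers and overlapped them in livers labelled L2aKO. The rule for reads with several matches was not given. Leaving such reads out would lower the globin rows but not *Alas2*, so this scale does not rank their mRNA levels. *Alas2* averaged 1730 ± 150 per kilobase in livers labelled L2aKO and 1869 ± 328 in 2afl/fl livers (SD, n = 4 each). The α-globin rows together averaged 1501 ± 182 per kilobase in livers labelled L2aKO and 1031 ± 121 in 2afl/fl livers. The lowest 2afl/fl liver had 1393 per kilobase for *Alas2*, against at most 1183 for the α rows. *Hbb-b1* and *Hbb-bs* together averaged 1571 ± 376 per kilobase in livers labelled L2aKO and 1065 ± 80.3 in 2afl/fl livers, and the *Hbb-b2* and *Hbb-bt* rows 167 ± 47.0 in livers labelled L2aKO and 111 ± 39.5 in 2afl/fl livers. The membrane genes were at the other end, at 0.34 ± 0.43 in livers labelled L2aKO and 1.59 ± 0.38 in 2afl/fl livers for *Epb42*, and at 1.61 ± 0.85 in livers labelled L2aKO and 1.59 ± 0.71 in 2afl/fl livers for *Slc4a1*. Both membrane genes were thus far below *Alas2* and every globin locus per kilobase in each genotype.

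*Epb42* encodes a red cell membrane protein that ties the band 3 anion exchanger to the skeleton, and it was lower in livers labelled L2aKO. Its values were 0, 0, 1.90 and 3.72 in livers labelled L2aKO, against 4.25, 7.45, 6.81 and 7.67 in 2afl/fl livers. These stand for 0, 0, 2 and 4 reads in livers labelled L2aKO, against 4, 7, 6 and 8 reads in 2afl/fl livers. A count of 0 allows up to 3 reads, a value of 3.27 in liver 1 and 2.46 in liver 2 labelled L2aKO, under the lowest 2afl/fl value. The log2 fold change of -1.94 (SE 0.57) depends on the constant added before the log, and was -3.62 with 0.1 and -0.54 with 10. Such numbers of reads allow no firmer statement on its size.

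*Slc4a1*, the gene for band 3 itself, had values of 5.45, 10.6, 10.5 and 2.79 in livers labelled L2aKO, against 10.6, 7.45, 7.95 and 2.88 in 2afl/fl livers. These are 3 to 13 reads in livers labelled L2aKO and 3 to 10 in 2afl/fl livers, and the groups overlapped fully. The log2 fold change was -0.02 (SE 0.48), and that error is close to the size of the globin differences.

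**Figure D3:**
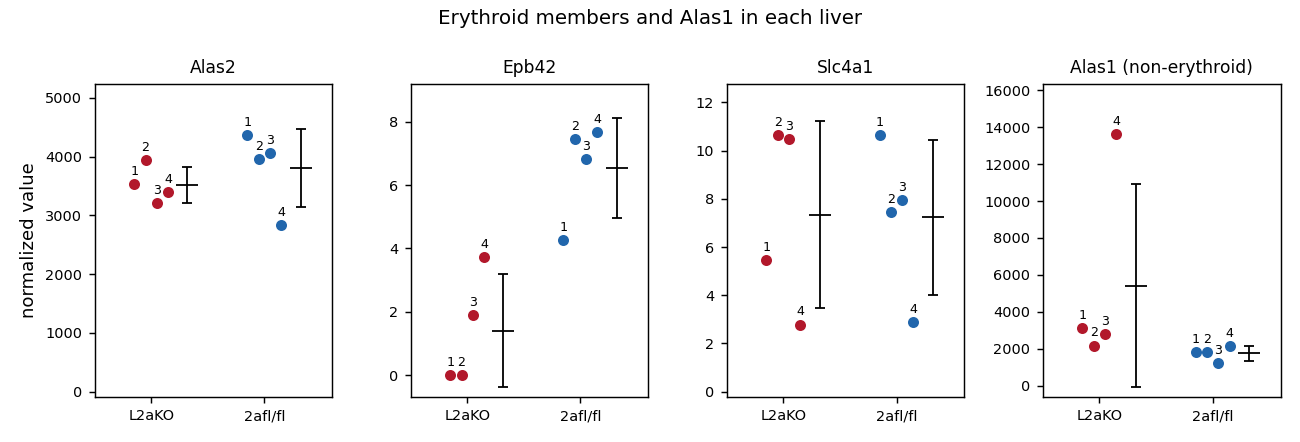
Normalized value (y axis) of *Alas2*, *Epb42*, *Slc4a1* and, for comparison, the non-erythroid gene *Alas1* in each liver, with livers labelled L2aKO on the left in red and 2afl/fl livers on the right in blue, and the mean ± SD in black. *Alas2* and *Slc4a1* overlap between genotypes, *Epb42* rests on 0 to 8 reads, and liver 4 labelled L2aKO stands apart in *Alas1* at 13634.

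The criterion of the study was a fold change of 25% or more at an unadjusted p under 0.05, and 4 of the 9 members met it as higher under the L2aKO label, namely *Hba-a1*, *Hba-a2*, *Hbb-b1* and *Hbb-bs*. *Epb42* met it as lower, and 4 did not meet it. Over all genes 2.1% met it in either direction, 1.32% as higher and 0.781% as lower, and since this contrast chose the members nothing is read from their count. The number of genes called lower, 130, was 84 without 2afl/fl liver 3. These 5 members also had groups that did not overlap, 4 higher and 1 lower, as had 2.25% of all genes (1.12% higher and 1.13% lower). For *Epb42* liver 4 labelled L2aKO and 2afl/fl liver 1 tied at 4 reads, and their values differ only by the scaling of the libraries. The median log2 fold change was 0.56 over the 6 globin rows and 0.00 over all genes. Nearest inside the criterion lay *Hba-a2*, with a fold of 1.39, and nearest outside it *Hbb-b2* and *Hbb-bt*, which passed on the fold (1.54) and missed on the p.

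**Figure D4:**
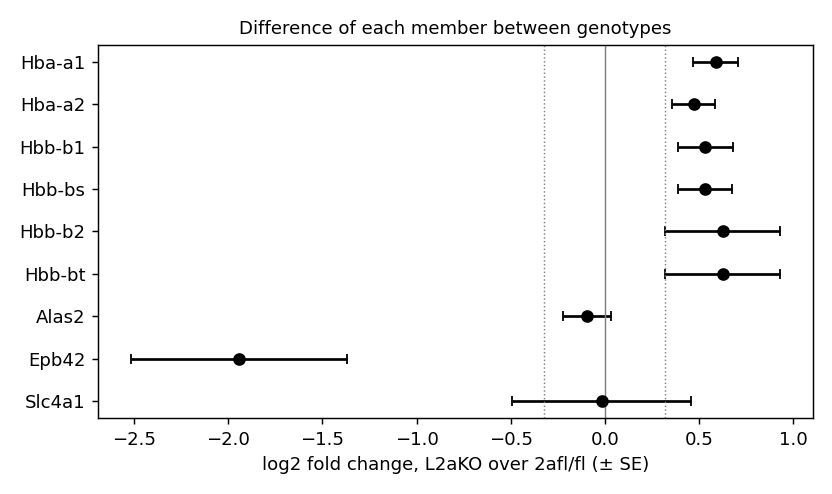
Log2 fold change of each member, livers labelled L2aKO over 2afl/fl livers (x axis), with bars of ± SE from the fit across all genes. Dotted lines mark a fold change of 25% in either direction. The 6 globin rows lie between 0.47 and 0.63, *Alas2* and *Slc4a1* near 0, and *Epb42* at -1.94.

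The criterion was met by 0 of 45 measured genes of 57 in lists of red cell membrane and skeleton genes (15 measured), erythroid transcription factors (12) and late erythroblast or reticulocyte genes (18). Over all genes 2.1% met it, so a count of 0 lies near the background, and it was 3 without 2afl/fl liver 2 or without liver 2 labelled L2aKO. At unadjusted p under 0.05 in the limma fit of all 8 livers the count was also 0. Of the 45, 20 were higher and 25 lower in livers labelled L2aKO, with a median log2 fold change of -0.02, against 0.00 over all genes. Their summed value was 21617 to 22981 in livers labelled L2aKO, against 21666 to 22464 in 2afl/fl livers. Much of that sum comes from genes that other liver cells also express, such as *Aqp1*, *Epb41*, *Bnip3l* and *Prdx2*.

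Of the 15 measured genes of the red cell membrane list, 7 had a mean value under 10 and 3 were at 0 in some liver. *Ermap*, which encodes an erythroid membrane protein, was at 0 in 2 of 8 livers and reached 3.81 in livers labelled L2aKO and 4.54 in 2afl/fl livers. The ankyrin gene *Ank1* ranged from 1.90 to 12.1 in livers labelled L2aKO and from 6.71 to 9.58 in 2afl/fl livers, overlapping. The spectrin gene *Sptb* of the same list was higher, at 97.6 to 118 in livers labelled L2aKO and 87.2 to 149 in 2afl/fl livers, and overlapped. *Klf1*, a transcription factor that drives adult β-globin, was measurable at 54.0 to 102 in livers labelled L2aKO and 62.8 to 77.6 in 2afl/fl livers, and also overlapped. *Gata1*, *Gfi1b*, *Ahsp* and *Hemgn* were not analysed here.

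Among the better measured genes of these lists, *Epor*, the erythropoietin receptor, averaged 26.6 ± 6.89 in livers labelled L2aKO and 36.2 ± 5.79 in 2afl/fl livers (SD, n = 4 each), with a log2 fold change of -0.45 (SE 0.23). *E2f2*, a cell cycle factor of late erythroblasts, averaged 166 ± 42.9 in livers labelled L2aKO and 215 ± 46.9 in 2afl/fl livers. *Tfrc*, the transferrin receptor that brings iron into erythroblasts and other dividing cells, averaged 928 ± 136 in livers labelled L2aKO and 806 ± 191 in 2afl/fl livers. *Tal1*, an erythroid and endothelial factor, averaged 57.8 ± 7.70 in livers labelled L2aKO and 49.4 ± 10.1 in 2afl/fl livers. None of these passed the test. The chemokine receptor gene *Ackr1* (log2 fold change -0.34, SE 0.23) and the glycophorin gene *Gypc* (-0.16, SE 0.15) leaned lower in livers labelled L2aKO and *Xk* (0.10, SE 0.09) higher, also without passing it.

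Of 11 embryonic or minor globins and related proteins only *Cygb* and *Ngb* were measured. *Cygb*, the cytoglobin of stellate cells, averaged 211 ± 22.0 in livers labelled L2aKO and 225 ± 33.9 in 2afl/fl livers. *Ngb*, neuroglobin, was near its floor at 3.78 ± 1.32 in livers labelled L2aKO and 3.51 ± 3.45 in 2afl/fl livers. Neither passed the test.

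Heme synthesis beyond *Alas2* was followed in a list of 20 genes for its enzymes and transporters, all measured. The criterion was met by 1 gene, as higher under the L2aKO label, and not by 19, where 1.32% of all genes were called higher, and the median log2 fold change was 0.00. The called gene was *Flvcr2*, a membrane transporter of the same family as the heme exporter *Flvcr1*, at 195 ± 43.0 in livers labelled L2aKO and 133 ± 24.7 in 2afl/fl livers, higher in 4 of 4 (log2 fold change 0.54, SE 0.17, limma adjusted p = 0.9997). *Alas1*, which encodes the form of the first enzyme made outside the red cell line, had 3108, 2173, 2781 and 13634 in livers labelled L2aKO, against 1829, 1800, 1211 and 2138 in 2afl/fl livers. Every liver labelled L2aKO was above every 2afl/fl liver, but liver 4 was over 4 times any other and the gene did not pass the test (log2 fold change 1.23, SE 0.61). *Slc25a39*, a mitochondrial carrier, averaged 6284 ± 453 in livers labelled L2aKO and 6282 ± 328 in 2afl/fl livers. *Abcb10*, a mitochondrial transporter needed for heme synthesis in red cells, averaged 1790 ± 242 in livers labelled L2aKO and 1912 ± 63.2 in 2afl/fl livers. *Clpx*, a protease subunit that acts on ALAS enzymes, averaged 5131 ± 1580 in livers labelled L2aKO and 5591 ± 1325 in 2afl/fl livers, and neither passed the test.

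Genes that clear hemoglobin and heme were also taken as a list of 20, all measured, of which 0 met the criterion and 1 had an unadjusted p under 0.05. Over all 16650 genes 2.1% met it, and 581 had an unadjusted p under 0.05 in the limma fit. Of these 20 genes 16 were higher and 4 lower in livers labelled L2aKO, with a median log2 fold change of 0.10. Over all genes 50.1% were higher. *Cd5l*, a secreted macrophage protein, averaged 2974 ± 335 in livers labelled L2aKO and 2461 ± 283 in 2afl/fl livers, and its log2 fold change of 0.27 (SE 0.10) was short of the fold the criterion requires, which it met without 2afl/fl liver 3 (1 called gene) or without liver 1 labelled L2aKO (also 1). *Slc40a1*, the iron exporter ferroportin, averaged 6424 ± 546 in livers labelled L2aKO and 5582 ± 928 in 2afl/fl livers (log2 fold change 0.21, SE 0.11). *Hpx*, the plasma protein that binds free heme, averaged 70765 ± 5162 in livers labelled L2aKO and 69187 ± 9032 in 2afl/fl livers (0.04, SE 0.10). *Slc48a1*, a heme transporter of the endolysosome, averaged 964 ± 93.7 in livers labelled L2aKO and 878 ± 73.6 in 2afl/fl livers (0.13, SE 0.08).

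Markers of other blood cells were read beside the globins. None of these summed lists separated the genotypes as the globins did. The 14 measured platelet and megakaryocyte genes of 18 summed to 1155 to 1348 in livers labelled L2aKO, against 1174 to 1310 in 2afl/fl livers. The 11 measured neutrophil genes of 15 summed to 653 to 769 in livers labelled L2aKO, against 623 to 718 in 2afl/fl livers. The 16 measured lymphocyte and monocyte genes of 19 summed to 660 to 798 in livers labelled L2aKO, against 528 to 1510 in 2afl/fl livers, a range that rests largely on *Nr4a1* (119 to 1065 in 2afl/fl livers). Gene by gene, 9 platelet genes were higher and 5 lower in livers labelled L2aKO, with a median log2 fold change of 0.12. For neutrophils it was 7 higher and 4 lower (median 0.19), and for lymphocytes and monocytes 12 higher and 4 lower (0.24). Over all genes 50.1% were higher.

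The platelet and neutrophil genes of greatest abundance in blood were low but above 0 in all 8 livers. *Ppbp* ranged from 6.50 to 12.3 in livers labelled L2aKO, against 2.27 to 6.38 in 2afl/fl livers, so that its groups did not overlap, and *Pf4* ranged from 5.57 to 17.4 in livers labelled L2aKO, against 3.84 to 9.57 in 2afl/fl livers. *S100a9* ranged from 3.28 to 5.71 in livers labelled L2aKO, against 1.14 to 3.19 in 2afl/fl livers, also without overlap, and *S100a8* from 4.76 to 9.29 in livers labelled L2aKO, against 2.13 to 16.3 in 2afl/fl livers. The *Ppbp* values of liver 1 labelled L2aKO, 6.54, and 2afl/fl liver 1, 6.38, differ only by the scaling of the libraries. For *S100a9* liver 2 labelled L2aKO, 3.28, and 2afl/fl liver 2, 3.19, lay close together at a few reads each. Over all genes 1.12% had groups without overlap that were higher under the L2aKO label. None of these 4 platelet and neutrophil genes met the criterion, and they were chosen after their values were seen. Their log2 fold changes were 0.35 to 0.85, whereas 5 platelet and 4 neutrophil genes of the lists were lower in livers labelled L2aKO. Among the lower genes were the platelet genes *Selp* (log2 fold change -0.21, SE 0.15) and *Itga2b* (-0.09, SE 0.18) and the neutrophil gene *Mmp9* (-0.28, SE 0.34). Of the 41 genes in the 3 blood lists, the platelet tubulin *Tubb1* met it as lower (3.17 ± 2.37 in livers labelled L2aKO and 7.68 ± 2.90 in 2afl/fl livers) and the B cell gene *Ms4a1* as higher (19.8 ± 2.05 in livers labelled L2aKO and 11.6 ± 6.18 in 2afl/fl livers), where 2.1% of all genes met it. With each liver left out in turn, *Tubb1* met it in 3 of 8 fits (not without 2afl/fl livers 1, 3 or 4 or livers 1 or 2 labelled L2aKO) and *Ms4a1* in 2 of 8 (only without 2afl/fl liver 2 or 4). *Tubb1* also did not meet it with 0.1 added before the log or without trend or robust settings. The part of blood left in the livers in the globin values was not tested.

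Cell types of the liver itself were compared in the same way. The 10 Kupffer cell genes, all measured, all had log2 fold changes above 0, as had 50.1% of all genes, with a median of 0.15. They summed to 9541 to 11975 in livers labelled L2aKO, against 8261 to 10482 in 2afl/fl livers. The criterion was met by 0 of them, where 2.1% of all genes met it. Without 2afl/fl liver 3 or without liver 1 labelled L2aKO it was met by 1, *Cd5l*, which is also in the clearance list. Liver 2 labelled L2aKO, which had the highest globin value, also had the highest *Marco*, 377 against at most 103 in the other 7 livers, and the highest *Adgre1*, 1137. The 10 sinusoidal endothelial genes summed to 17400 to 18948 in livers labelled L2aKO, against 15528 to 17438 in 2afl/fl livers. Of these endothelial genes 9 were higher and 1 lower in livers labelled L2aKO, with a median log2 fold change of 0.06. The criterion was met by 0 of them, again where 2.1% of all genes met it. The 12 hepatocyte genes had a median log2 fold change of 0.09, with *Pck1*, a gluconeogenic enzyme, meeting the criterion as higher, where 1.32% of all genes did. *Pck1* did not meet it without 2afl/fl liver 1 or 4 or without liver 2 or 3 labelled L2aKO. The part of these cells in the globin result was not tested.

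**Figure D5:**
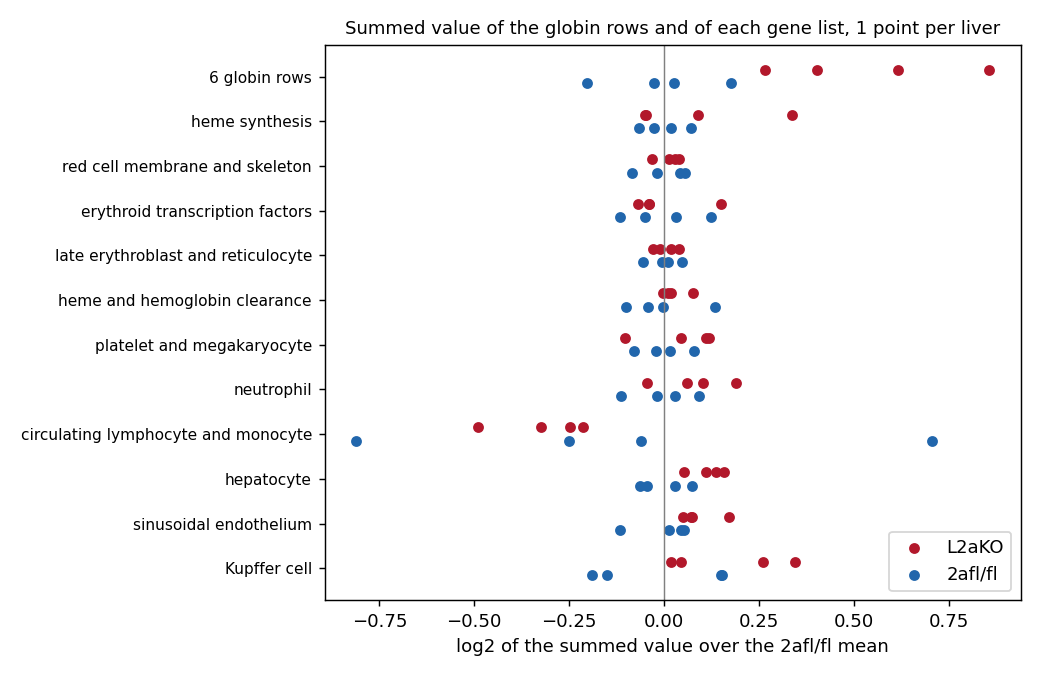
Summed value of the 6 globin rows and of each gene list in every liver, as log2 of its ratio to the mean of the 2afl/fl livers (x axis), with livers labelled L2aKO in red above 2afl/fl livers in blue. The globin rows lie at 0.27 to 0.86 in livers labelled L2aKO, against -0.20 to 0.18 in 2afl/fl livers, while each list overlaps between the genotypes.

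Within genotypes these lists followed the globins little. With the group means removed, Pearson's r with the summed globin rows over 8 livers was -0.09 for the platelet list, 0.20 for neutrophils, -0.30 for lymphocytes and monocytes, 0.38 for Kupffer cells, -0.30 for endothelium and -0.35 for the 3 erythroid lists together. For *Epb42* it was -0.78, on the few reads given above.

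Single genes were then ranked by the same measure among 14206 non-globin genes whose mean value reached 10. The 6 most like the globins were *Ddx52* (an RNA helicase, r = 0.98), *Ppm1f* (a protein phosphatase, 0.96), *Atg4c* (an autophagy protease, 0.96), *AI507597* (0.95), *Spata22* (a meiosis gene, 0.95) and *Usp50* (0.95). The 3 least like them were *Ptov1* (-0.98), *Ipmk* (an inositol phosphate kinase, -0.96) and the heme transporter gene *Slc48a1* (-0.96). None of these 9 met the criterion between genotypes. Over all 14206 genes, 5% lay above 0.69 and 5% below -0.69. None of the 6 is in the erythroid lists.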

How the data were processed

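Liver RNA was sequenced in 4 mice labelled L2aKO and 4 labelled 2afl/fl. The authors deposited a normalized signal per gene, made in Partek Flow version 10 with STAR 2.7.8a, mm10 and DESeq2. It behaves as reads divided by a factor per library, with 89.7 to 90.2% of small values within 0.02 of a whole multiple of 1 read, so count tests were not used. The annotation, the rule for reads with several matches and the gene filter were not given in the sources used here. Positions, genotypes and 16650 genes (0 value columns unused) were taken as deposited.

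The fit was limma 3.58.1 in R 4.3.3 (trend and robust, log2 of value plus 1, two-sided, no covariates), tested on simulated data. Genes were called at unadjusted p under 0.05 and a fold of at least 1.25. No 2 libraries were copies (chi-square per degree of freedom 24.0 to 120.6). The labels do not say that replicates are separate cages or litters, so the spread is that between these mice. Depth of 27.5 to 37.2 M reads limits genes under 10 reads to coarse values, and floors cover counting error only.

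The members and gene lists were chosen with earlier results of these data known. Text names every member, overlapping rows, the called genes of each list and 9 genes by likeness. Also picked per list were up to 4 genes with the smallest p at a mean of at least 10 and the 2 of highest mean. Only some of these picks are named. *Ermap*, *Ank1*, *Sptb*, *Klf1*, *Ppbp*, *Pf4*, *S100a8*, *S100a9* and *Marco* were chosen after their values were seen, as defining markers. Alternatives covered the pseudocount, a filter, scaling, limma settings, library weights, the replicate block, a fold of 1.5, and leaving out each liver. Some genes of the lists are counted in them but not reported here by name.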

Additional observations from a re-analysis of the deposited data

Results flagged for a closer look

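Among 160 groups of 4 livers looked at (80 genes or sums in each genotype), 9 held a liver far from the other 3, where chance gives about 1 in 20 groups, or 8. None was a globin row, *Alas2*, *Epb42* or *Slc4a1*.

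In liver 4 labelled L2aKO, *Alas1* stood at 13634 against 2173 to 3108 in the other 3, and *Flvcr2* at 258 against 164 to 179. Without that liver the heme synthesis list had 2 called genes, against 1 with all livers. In liver 1 labelled L2aKO, *Clpx* stood at 7494 against 4231 to 4500 and *Ms4a1* at 22.9 against 18.6 to 19.0. In liver 3 labelled L2aKO, *Zfpm1*, a cofactor of GATA factors, stood at 2017 against 1300 to 1396.

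In 2afl/fl liver 4, *Ngb* stood at 8.63 against 1.14 to 2.13 and *Itga2b* at 104 against 64.9 to 71.3. In 2afl/fl liver 3, *Stab2* was low at 2978 against 4078 to 4239, and in 2afl/fl liver 1, *Selp* was low at 88.9 against 117 to 120.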

How the results depend on the processing

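The summed globin rows kept their direction and moved by less than the spread between livers under all 18 alternatives, from 0.44 to 0.63 on the log2 scale, and 0.44 to 0.63 when each liver was left out. Their groups did not overlap, so leaving out a liver could not reverse the direction. The members were chosen by this contrast, so their calls in the other fits are no separate support. *Hba-a1*, *Hba-a2*, *Hbb-b1* and *Hbb-bs* met the criterion in 17 of 17 other fits, *Epb42* in 16 of 16, *Hbb-b2* and *Hbb-bt* in 3 (without 2afl/fl liver 1, 2afl/fl liver 3 or liver 3 labelled L2aKO), and *Alas2* and *Slc4a1* in 0. A fold of at least 1.5 left 1 globin row. The number of genes called, 349, was 229 when genes with a mean under 10 were left out, 212 at a fold of at least 1.5, 470 without trend or robust settings and 300 to 428 with a liver left out. Calls lower in livers labelled L2aKO, 130, ranged from 84 to 191 with a liver left out. The count in the 3 erythroid lists, 0, was 1 without trend or robust settings, 1 with quantile normalization and 0 to 3 with a liver left out (3 without 2afl/fl liver 2 or liver 2 labelled L2aKO). Quantile normalization gave 167 calls higher and 169 lower over all genes, in place of 219 and 130. The replicate block gave 0.54 for the summed globin rows and 359 calls. Same-numbered livers did not deviate together (r = -0.21 to 0.13), which cannot settle whether the numbers pair mice. Taking 1 row of each overlapping pair was chosen after seeing the data and gave 0.56. A sum over globin rows with no overlapping partner was not run, because every globin row overlaps another. Among named list genes, *Flvcr2* was called in 8 of 8 fits with a liver left out, *Pck1* in 4, *Tubb1* in 3 and *Ms4a1* in 2. Causes of these shifts were not tested. Depth limits *Epb42* and *Slc4a1*, which rest on at most 13 reads a liver.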
